A study of Homo sapiens with 6 samples.

Results

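The 10 genes described here encode enzymes that make serine from glucose and enzymes that pass its carbon through the folate cycle. They were chosen by name, for their place in the pathway, but with earlier results of these data known. Counts of calls among them, set beside all genes, are therefore a description. They are PHGDH, PSAT1 and PSPH of serine synthesis, SHMT1 and SHMT2, the serine hydroxymethyltransferases, and MTHFD1, MTHFD2, MTHFD1L, MTHFD2L and ALDH1L2 of folate metabolism. Each name occurred in the deposited tables, which hold 60835 distinct gene names, and all 10 passed the filter on low counts that left 15346 genes to test. RNA came from HEY, a human ovarian cancer line in long use, with 3 libraries labelled siNC, the reference group here, and 3 labelled siCCNL2. CCNL2 encodes cyclin L2, which binds CDK11. The labels give 1 treatment for all 6 libraries, a CCNL2 siRNA for 48 h, so the genotype label set the groups. Nothing in the labels says whether the libraries of a group are separate cultures, and all p-values measure only how far these libraries vary, possibly for technical reasons.

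Serine synthesis branches off glycolysis. PHGDH oxidizes a glycolytic intermediate, PSAT1 transfers an amino group from glutamate to the product, and PSPH removes its phosphate to leave serine. SHMT2 in mitochondria and SHMT1 in the cytosol split serine into glycine and a folate-bound carbon unit, which mitochondria oxidize to formate (MTHFD2 or MTHFD2L, then MTHFD1L) and the cytosol takes up again through MTHFD1 for purines and thymidylate. ALDH1L2 instead oxidizes the formyl group in mitochondria to carbon dioxide, which yields NADPH. Many of these genes are known targets of ATF4, a transcription factor that is translated more when amino acids are short.

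Of the 10 transcripts, 7 rose in siCCNL2 and 0 fell at an adjusted p under 0.05 (edgeR's quasi-likelihood test, adjusted over all 15346 genes). Over all tested genes 17.2% were called higher and 16.5% lower. The median log2 fold change (siCCNL2 over siNC) was 0.37 over the 10 genes and 0.0023 over all tested genes, with a range of -0.01 to 0.58 over the 10. Members called higher were all 3 enzymes of serine synthesis and MTHFD1, MTHFD2, MTHFD1L and ALDH1L2. SHMT1, SHMT2 and MTHFD2L were not called. The siCCNL2 libraries lay above all siNC libraries in CPM (each count as a share of the library's total, scaled by edgeR's TMM method) for those 7 genes, as they did for 22.1% of tested genes. Within the siCCNL2 group, replicate 1 had the lowest CPM for 7 of the 10 members, while in siNC replicate 3 had the highest for 5.

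**Figure D1:**
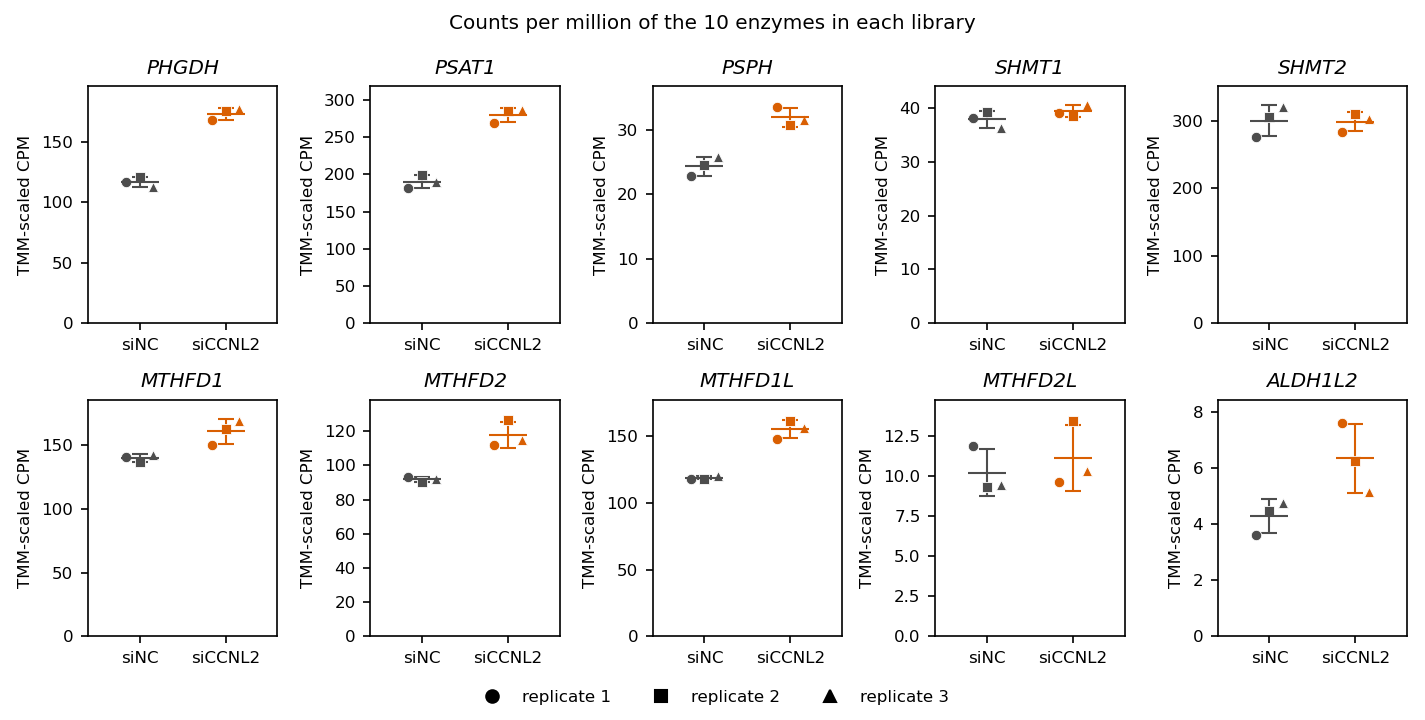
TMM-scaled CPM (vertical axes, starting at 0) of the 10 enzyme transcripts in each library, with siNC in grey and siCCNL2 in orange. Symbols are replicates, the horizontal bar is the mean and the error bar 1 SD (n = 3 each). The groups are apart for the 7 genes called higher and overlap for SHMT1, SHMT2 and MTHFD2L.

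Total counts per library ran from 13596286 to 18095529, and each of the 10 genes was read from the same 6 libraries. CCNL2 fell from 258 ± 10.8 to 190 ± 11.2 CPM (SD, n = 3 each), that is, it fell by 26.3%. The mitochondrial share of counts was between 3.22% and 3.39% in the siNC libraries and between 3.43% and 3.77% in the siCCNL2 libraries, and its part in the results was not tested. Of markers fitting the label, the keratin genes KRT7, KRT8 and KRT18 and the lineage factor PAX8 were present at 112 CPM or more in every library, while CDH1 and MUC16 were near 0 (at most 0.522 CPM). The summed epithelial markers (6 genes, 3 of them called lower) ran from 2023 to 2105 CPM in siNC and from 1531 to 1683 in siCCNL2, and the 5 lineage markers, with PAX8 and WT1 called lower, from 231 to 241 and from 221 to 229. EPCAM was low, at 1.36 to 2.91 CPM. The summed mesenchymal markers (4 genes, CDH2 called higher) were above the epithelial ones, at 2673 to 2777 CPM in siNC and 2740 to 2865 in siCCNL2. Summed leukocyte markers (4 genes) reached at most 1.07 CPM. Of 3 endothelial markers, CDH5 lay at 111 to 117 CPM in siNC and 43.9 to 53.3 in siCCNL2. PECAM1 lay at 2.07 to 2.78 CPM in siNC and 0.713 to 1.27 in siCCNL2, and both genes were called lower. KDR, which was not tested, lay at 0.149 to 0.636 CPM over all libraries. The part of these shifts in the enzyme results was not tested, and in bulk RNA fewer cells of a type and less RNA per cell cannot be told apart.

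PHGDH, the entry enzyme of serine synthesis (ENSG00000092621, plus strand of chromosome 1, 119648411 to 119744218, GRCh38), was measured at 117, 121 and 113 CPM in siNC replicates 1 to 3 and at 168, 176 and 177 CPM in siCCNL2. The lowest siCCNL2 library was well above the highest siNC library. PHGDH rose by 48.3% (log2 fold change 0.57, SE 0.043, adjusted p = 2.02e-10).

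PSAT1, the aminotransferase of the second step (chromosome 9, 78297125 to 78330093, plus strand), stood at 181, 199 and 190 CPM in siNC and at 269, 286 and 286 CPM in siCCNL2. It rose by 47.6% (log2 fold change 0.56, SE 0.041, adjusted p = 1.05e-10), with the groups again apart. PHGDH and PSAT1, which act in succession, thus had log2 fold changes that differed by less than the SE of either.

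PSPH, the phosphatase of the last step (chromosome 7, 56011051 to 56051604, minus strand), was the least counted of the serine synthesis genes, at 387 to 613 reads per library. It gave 22.9, 24.6 and 25.8 CPM in siNC and 33.6, 30.8 and 31.6 CPM in siCCNL2. The groups did not overlap, and PSPH rose by 31.4% (log2 fold change 0.39, SE 0.074, adjusted p = 1.81e-04). Its pseudogene PSPHP1 averaged 30.3 reads per library, and reads shared between both cannot be assigned with certainty. The pseudogenes named after PSAT1 reached at most 1 read.

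The stretches before the RefSeq start sites of PHGDH and PSAT1 are shown because these genes gave the largest rises among the well counted members. Each line holds the 250 bases before the first start listed by RefSeq (GRCh38.p14, plus strand, 5′ to 3′), at chr1:119711684-119711933 for PHGDH and chr9:78296875-78297124 for PSAT1, and capitals mark the letters CCAAT.
PHGDH: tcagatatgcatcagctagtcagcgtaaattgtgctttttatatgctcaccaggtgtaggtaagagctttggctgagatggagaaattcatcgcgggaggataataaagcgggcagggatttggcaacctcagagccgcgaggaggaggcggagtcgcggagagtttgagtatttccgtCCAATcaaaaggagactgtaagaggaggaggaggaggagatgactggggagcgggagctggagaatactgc
PSAT1: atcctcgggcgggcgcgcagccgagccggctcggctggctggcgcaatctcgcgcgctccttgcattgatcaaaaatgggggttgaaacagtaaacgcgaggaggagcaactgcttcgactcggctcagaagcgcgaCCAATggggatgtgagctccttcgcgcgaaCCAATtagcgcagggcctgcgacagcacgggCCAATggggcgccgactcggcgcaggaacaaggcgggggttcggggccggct
PHGDH holds CCAAT once, 71 bases before the start, and PSAT1 holds it 3 times, at 113, 83 and 52 bases before the start. Windows of 300 bases (250 before to 50 after the start) were found for 7 of the 10 members, those other than PSPH, SHMT2 and ALDH1L2, and were searched on both strands. CCAAT, a motif chosen after the sequences had been seen, occurred in 6 of the 7 windows and in 35.7% of 27305 windows, 1 per gene. TGATGNAA, the core of the composite element that ATF4 binds, occurred in 1 of the 7, that of MTHFD1L, and in 3.67% of all windows. These are matches of letters within a short window and say nothing about binding. The PHGDH stretch lies inside the deposited gene span, which begins upstream at 119648411, so it may not hold the start used in these cells.

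SHMT2, the mitochondrial serine hydroxymethyltransferase (chromosome 12, 57229573 to 57234935, plus strand), stood at 276, 306 and 320 CPM in siNC and at 283, 310 and 303 CPM in siCCNL2. The groups overlapped over most of their range. Its log2 fold change was -0.01 (SE 0.046, adjusted p = 0.917), with a 95% confidence interval from -0.10 to 0.09. That interval lies below the point estimates of PHGDH, PSAT1 and the other 5 genes called higher.

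SHMT1, its cytosolic counterpart (chromosome 17, 18327860 to 18363563, minus strand), gave 38.2, 39.4 and 36.3 CPM in siNC and 39.2, 38.6 and 40.7 CPM in siCCNL2. SMCR8, on the opposite strand, covers 2.69% of its exon bases in GENCODE release 29 and was called higher (log2 fold change 0.18). The SHMT1 groups overlapped too (log2 fold change 0.06, SE 0.062, adjusted p = 0.513, 95% confidence interval -0.07 to 0.19). Neither gene of the serine-splitting step was called, and a p above the threshold does not show that they stayed equal.

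**Figure D2:**
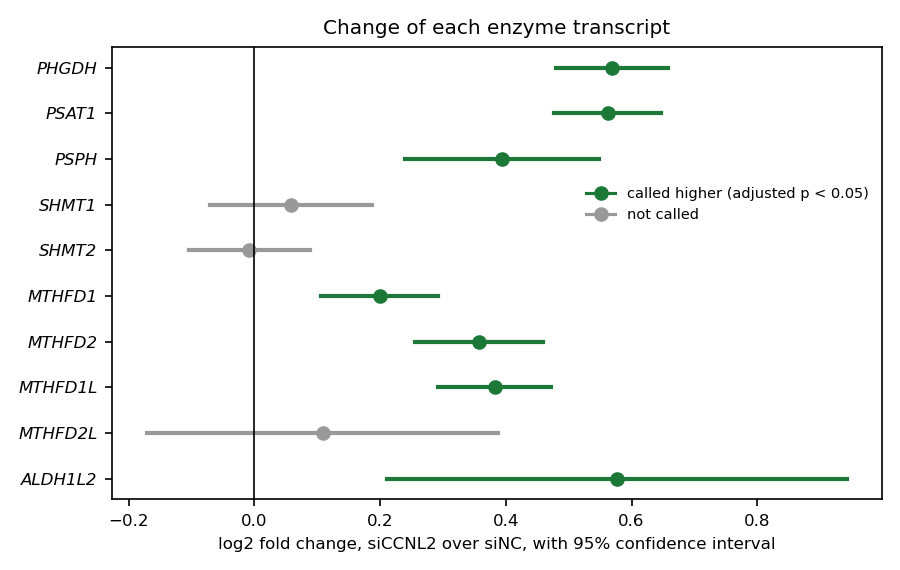
Log2 fold change of each enzyme transcript, siCCNL2 over siNC (horizontal axis), with its 95% confidence interval from the edgeR fit (n = 3 libraries a group). Green marks the 7 genes called higher, grey the 3 not called. The intervals of SHMT1, SHMT2 and MTHFD2L include 0, and that of ALDH1L2 is the widest.

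MTHFD2, the mitochondrial dehydrogenase and cyclohydrolase (chromosome 2, 74186172 to 74217565, plus strand), was read at 93.4, 90.1 and 91.8 CPM in siNC and at 112, 126 and 115 CPM in siCCNL2. The siNC libraries lay within a few CPM of each other and below every siCCNL2 library. MTHFD2 rose by 28.1% (log2 fold change 0.36, SE 0.049, adjusted p = 3.30e-06). SLC4A5, on the opposite strand, covers 27.2% of its exon bases but had a mean of 7 reads per library.

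MTHFD1L, the mitochondrial ligase that releases formate (chromosome 6, 150865679 to 151101887, plus strand), stood at 118, 118 and 120 CPM in siNC and at 148, 161 and 156 CPM in siCCNL2. It rose by 30.4% (log2 fold change 0.38, SE 0.043, adjusted p = 1.72e-07), close to the change of MTHFD2. These genes catalyse adjoining steps on the mitochondrial side.

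MTHFD1, which carries the corresponding activities in the cytosol (chromosome 14, 64388031 to 64463457, plus strand), gave 140, 137 and 142 CPM in siNC and 150, 163 and 169 CPM in siCCNL2. It rose by 14.8% (log2 fold change 0.20, SE 0.045, adjusted p = 0.00122), with siCCNL2 replicate 1 nearest to the siNC libraries. ZBTB25, on the opposite strand, overlaps it over 14352 bases but over only 1.90% of its exon bases, and was itself not called (log2 fold change 0.01).

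The stretches before MTHFD2 and MTHFD1L are shown for the mitochondrial pair that rose, and because MTHFD1L alone among the matched members holds TGATGNAA. They lie at chr2:74198365-74198614 and chr6:150866236-150866485 (GRCh38.p14, plus strand, 5′ to 3′), and capitals mark CCAAT in both and, in MTHFD1L, also CACGTG and TGATGCAA.
MTHFD2: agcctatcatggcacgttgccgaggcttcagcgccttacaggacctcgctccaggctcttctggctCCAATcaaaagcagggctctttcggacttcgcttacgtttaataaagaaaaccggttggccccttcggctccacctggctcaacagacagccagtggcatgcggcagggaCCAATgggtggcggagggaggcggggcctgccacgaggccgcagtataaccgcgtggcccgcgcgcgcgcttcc
MTHFD1L: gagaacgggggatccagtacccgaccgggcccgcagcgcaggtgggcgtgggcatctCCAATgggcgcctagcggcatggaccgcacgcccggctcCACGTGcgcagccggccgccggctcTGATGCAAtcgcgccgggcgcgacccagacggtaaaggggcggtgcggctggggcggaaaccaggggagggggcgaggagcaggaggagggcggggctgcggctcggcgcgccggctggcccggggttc
In MTHFD1L the letters TGATGCAA begin 129 bases and CACGTG, the E-box that MYC family factors bind, 154 bases before the first of 4 listed starts. CACGTG also occurred in MTHFD1, 15 bases before its start, and in 7.43% of all windows. TGACNNNGC, the core of the element bound by NRF2, occurred after the start in MTHFD2 and MTHFD2L and in 13.6% of all windows. The motifs marked did not overlap each other. The stretches of MTHFD2 and MTHFD1L also lie inside the deposited gene spans, which begin upstream of them.

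MTHFD2L, a paralogue of MTHFD2 (chromosome 4, 74114174 to 74303099, plus strand), was sparse, with 147 to 201 reads per library. It gave 11.9, 9.29 and 9.41 CPM in siNC and 9.60, 13.4 and 10.3 CPM in siCCNL2. The groups overlapped, with siNC replicate 1 and siCCNL2 replicate 2 each above the rest of its group (log2 fold change 0.11, SE 0.135, adjusted p = 0.583). The 95% confidence interval ran from -0.17 to 0.39, a range that takes in the point estimate of MTHFD2 (0.36).

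ALDH1L2, the mitochondrial formyl-folate dehydrogenase (chromosome 12, 105019784 to 105107643, minus strand), was the least counted member, with 61 to 139 reads per library. It gave 3.60, 4.49 and 4.77 CPM in siNC and 7.62, 6.26 and 5.15 CPM in siCCNL2, a narrow gap between siNC replicate 3 and siCCNL2 replicate 3. ALDH1L2 rose by 49.1% (log2 fold change 0.58, SE 0.177, adjusted p = 0.0138). The call was lost without siCCNL2 replicate 1 (log2 fold change 0.41, adjusted p = 0.117) and without siNC replicate 1 (0.46, adjusted p = 0.0785). NOPCHAP1, on the opposite strand, overlaps ALDH1L2 over 54414 bases and 1.70% of its exon bases, and was not called (log2 fold change 0.03). WASHC4, also opposite, overlaps it by 320 bases outside its exons and was called lower (log2 fold change -0.26). Whether strand was used in counting is not given in the sources used here.

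Levels of different genes were compared on the authors' TPM-like score, a count divided by a length for each gene and scaled to the library. Which length was used is not known here. SHMT2 and MTHFD2, with 4838 and 4870 exon bases in GENCODE release 29, had means of 301 and 91.8 CPM in siNC but scores of 271 and 43.4. The order, shares and sums of the scores, and the size of ratios between genes, depend on that length. In siNC the order was SHMT2 (271 ± 18.8, SD, n = 3), PSAT1 (265 ± 12.4), PHGDH (113 ± 5.12), MTHFD1L (105 ± 0.260), MTHFD1 (63.1 ± 0.982), MTHFD2 (43.4 ± 0.894), SHMT1 (42.3 ± 2.06), PSPH (34.5 ± 1.84), MTHFD2L (9.86 ± 1.46) and ALDH1L2 (1.61 ± 0.219). Libraries of neighbours overlapped for SHMT2 with PSAT1 and for MTHFD2 with SHMT1, and the other neighbours were apart. In siCCNL2, PSAT1 reached 388 ± 8.74 while SHMT2 stood at 267 ± 7.40. PSAT1 thereby made up 27.9% of the summed score of the 10 genes in siNC and 32.7% in siCCNL2, and SHMT2 28.5% and 22.5%.

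The summed score of the 3 serine synthesis genes was 401, 431 and 406 in siNC and 593, 592 and 613 in siCCNL2, 1.45 times higher. That of the 5 mitochondrial folate genes (SHMT2, MTHFD2, MTHFD1L, MTHFD2L, ALDH1L2) was 412, 435 and 445 against 457, 481 and 476, 1.10 times higher. SHMT2 made up most of that level but not of its rise, at a mean of 271 in siNC and 267 in siCCNL2. MTHFD1L went from 105 to 136 and MTHFD2 from 43.4 to 55.2. The cytosolic SHMT1 and MTHFD1 together gave 107, 106 and 104 against 113, 113 and 121, also 1.10 times higher.

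Ratios within a library were compared to see whether paired enzymes moved by unequal amounts. MTHFD1L over MTHFD1 was 1.65, 1.69 and 1.66 in siNC and 1.93, 1.94 and 1.81 in siCCNL2, 1.14 times higher by geometric mean. The groups did not overlap. A two-sided exact permutation test gave p = 0.1, which 3 libraries against 3 cannot go below (0.3 adjusted over the 3 ratios tested). SHMT2 over SHMT1 was 5.83, 6.27 and 7.13 in siNC and 5.84, 6.48 and 6.02 in siCCNL2 (exact permutation p = 0.7, adjusted 0.7). MTHFD2 over MTHFD2L was 3.85, 4.74 and 4.77 against 5.71, 4.61 and 5.45, with overlapping groups (exact permutation p = 0.3, adjusted 0.45).

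The remaining ratios, of PHGDH and of MTHFD2 to SHMT2, were chosen after the values had been seen, because SHMT2 acts between these enzymes and was not called. PHGDH over SHMT2 was 0.457, 0.426 and 0.377 in siNC and 0.637, 0.608 and 0.628 in siCCNL2, 1.49 times higher. MTHFD2 over SHMT2 was 0.178, 0.155 and 0.150 in siNC and 0.208, 0.214 and 0.199 in siCCNL2, 1.29 times higher. These values are a description, with no test, since the choice followed from them. ALDH1L2 was not set against its cytosolic counterpart ALDH1L1, which was at most 0.373 CPM in any library.

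**Figure D3:**
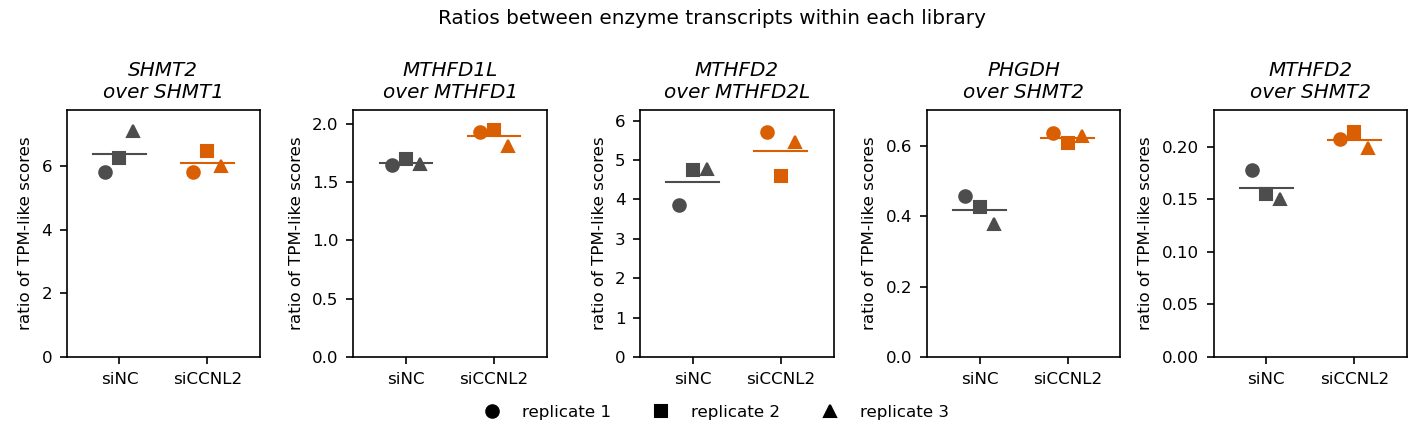
Ratios of TPM-like scores between enzyme transcripts within each library (vertical axes, starting at 0), with siNC in grey and siCCNL2 in orange, symbols for replicates and a line at the geometric mean. The groups are apart for MTHFD1L over MTHFD1, PHGDH over SHMT2 and MTHFD2 over SHMT2, and overlap for SHMT2 over SHMT1 and MTHFD2 over MTHFD2L.

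Around the 10 enzymes, 97 further genes were grouped by role, of which 80 could be tested. Of these, 15 rose, 11 fell and 54 were not called, against 17.2% called higher and 16.5% lower over all tested genes, and their median log2 fold change was 0.01. Their share called higher was near that of all genes. The counts for each list below are a description to be set against these shares, with no test of any list.

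Of 13 tested further folate enzymes and transporters, 2 rose, 3 fell and 8 were not called (median log2 fold change -0.01). TYMS, thymidylate synthase, rose with a log2 fold change of 0.55 (15.6 ± 1.29 CPM in siNC, 23.1 ± 5.57 in siCCNL2). Its siCCNL2 replicate 2 was at 29.2 CPM, and without that library the log2 fold change was 0.36. ENOSF1, on the opposite strand, covers 39.1% of the TYMS exon bases and was not called. FPGS, which retains folates in the cell by adding glutamates, fell by 0.33 on the log2 scale, which is also the scale of the changes given alone for the genes below, and SLC46A1, the proton-coupled folate transporter, fell from a low level (3.75 ± 0.643 CPM in siNC, 1.66 ± 0.578 in siCCNL2). SLC46A1 shares 56.4% of its exon bases with SARM1 on the opposite strand. The most abundant, SFXN1, a mitochondrial serine carrier, at a mean of 175 CPM, and GGH at 143 CPM were not called.

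Purine synthesis, a main user of cytosolic formyl-folate, had 0 of 13 genes higher and 3 lower (median log2 fold change -0.01). PPAT, its first committed enzyme, gave 87.1, 81.6 and 80.4 CPM in siNC and 55.7, 52.4 and 57.3 CPM in siCCNL2, and fell by 33.5% (log2 fold change -0.59, adjusted p = 5.66e-09). IMPDH1, of guanine nucleotide synthesis, fell by 0.40 and PRPS1, which makes the ribose donor, by 0.19. PAICS (470 CPM) and GART (235 CPM), of which GART uses formyl-folate, were not called.

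In the methionine cycle and transsulfuration, 2 of 12 tested genes rose and 1 fell (median -0.01). AHCY, which clears S-adenosylhomocysteine, rose by 0.18, and CBS, the entry enzyme of transsulfuration, by 0.91 from 1.96 ± 0.334 to 3.68 ± 0.507 CPM. CBS has a near-identical annotated copy, CBSL (31.3 reads per library), so its counts are uncertain. SARDH, sarcosine dehydrogenase of mitochondria, fell by 0.62. MAT2A (442 CPM), which makes S-adenosylmethionine, and AHCYL1 (219 CPM) were not called.

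Of 4 tested genes listed under glycine cleavage, GCAT, an acetyltransferase outside the cleavage system itself, fell by 0.34 (adjusted p = 0.0404). That call was lost under 7 of 16 alternatives with adjusted p up to 0.188. The other 3, GLDC, GCSH and DLD (93.8 CPM), were not called. Of 7 tested genes of serine use, 0 were called in either direction by edgeR's quasi-likelihood test, and PTDSS1 of phosphatidylserine synthesis (386 CPM) and SPTLC2 of sphingolipid synthesis (150 CPM) were the most abundant.

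Among 6 tested serine and glycine transporters, 2 rose and 1 fell (median log2 fold change 0.10). SLC1A5, an exchanger of neutral amino acids including serine and glutamine, had means of 92.3 ± 3.27 CPM in siNC and 135 ± 3.81 in siCCNL2 and rose by 0.55 (SE 0.045, adjusted p = 8.17e-10). SLC6A9, a glycine transporter, rose by 0.95 from 2.23 ± 0.357 to 4.30 ± 0.701 CPM. SLC36A1 fell by 0.29, and SLC38A1 (587 CPM) and SLC38A2 (410 CPM) were not called.

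Of 10 tested genes of glycolysis above the serine branch, 2 rose and 1 fell (median 0.03). PFKL, a phosphofructokinase subunit, rose by 0.56 and HK2, a hexokinase, by 0.27, while PFKP, another phosphofructokinase subunit, fell by 0.12 with overlapping groups, a call lost under 6 of 16 alternatives (adjusted p up to 0.112). GAPDH (3764 CPM) and TPI1 (1028 CPM) were not called.

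Among 7 tested regulators of the pathway, 3 rose and 1 fell, against 17.2% called higher and 16.5% lower over all tested genes. ATF4 was measured at 291, 305 and 310 CPM in siNC and at 361, 365 and 363 CPM in siCCNL2, and its transcript rose by 0.27 (SE 0.036, adjusted p = 1.99e-06), less than PHGDH or PSAT1 by point estimate. MDM2, a ubiquitin ligase gene, rose by 0.46. NFE2L2, which encodes NRF2, fell by 0.24. AGPS, on the opposite strand, covers 0.903% of the NFE2L2 exon bases and was also called lower (log2 fold change -0.24). AC019080.1, on the same strand, covers 17.6% of them with a mean of 142 reads per library and was not called. The NFE2L2 counts are therefore uncertain.

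Of 8 tested marker targets of ATF4, 4 rose and 0 fell (median 0.19), against 17.2% called higher and 16.5% lower over all tested genes. TRIB3, a pseudokinase gene induced by ATF4, rose by 0.89 (19.9 ± 2.26 to 36.9 ± 0.955 CPM), DDIT4 by 0.45 and DDIT3, which encodes CHOP, by 1.18 from 1.40 ± 0.271 to 3.21 ± 0.528 CPM. MARS1, on the opposite strand and far more abundant, covers 27.2% of the DDIT3 exon bases and was not called. MBD6, also opposite, covers 4.44% of them with a mean of 564 reads per library and was called higher (log2 fold change 0.58, adjusted p = 2.44e-07), so the DDIT3 counts are uncertain. XPOT (372 CPM), CEBPB (67.9 CPM), CHAC1 and VLDLR were not called. ASNS, asparagine synthetase and a usual marker of ATF4 activity, could not be tested, at 0.298 to 0.823 CPM. It shares 44.6% of its exon bases with AC079781.5 on the same strand, and how reads common to both were counted is not given in the sources used here. ALDOA, IMPDH2 and GCSH, counted above as tested and not called, had only 21 to 48 reads per library. SLC25A32, ADSS1, GNMT, CHDH, SDSL and SPTLC3, also tested and not called, had 3 to 26. For all these genes the lack of a call says little.

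**Figure D4:**
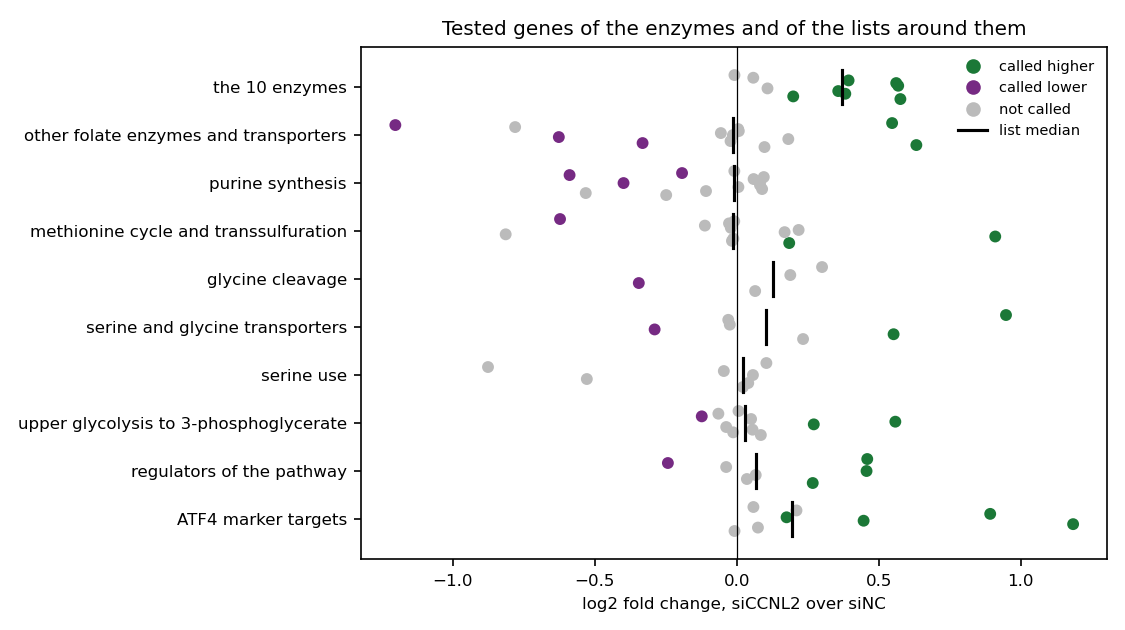
Log2 fold change, siCCNL2 over siNC (horizontal axis), of each tested gene among the 10 enzymes and the 9 lists around them (rows), with the list median as a black line. Green marks genes called higher, purple lower and grey not called. The median of the 10 enzymes is 0.37, and those of the other lists run from -0.01 to 0.19.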

How the data were processed

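RNA of 6 HEY libraries (3 siNC, 3 siCCNL2, by genotype label) was sequenced. The authors deposited raw read counts for each gene and a second table with a TPM-like score. The score divides count by a length for each gene, of a kind not known here, and sums to 1000000 per library over distinct names. Per the submitters' processing notes, the tools were HISAT2, fastp 0.23.0 and HTSeq 2.0.1 and the build GRCh38, with no role or order stated. Names that occurred in several rows held the same values and were used once (60835 of 62710 rows). Counts were filtered with filterByExpr (at least 99.76% of counts kept per library), scaled by TMM and tested with edgeR 4.0.16 in R 4.3.3 (quasi-likelihood, no covariates), with Benjamini-Hochberg adjustment over all 15346 tested genes and calls at 0.05. The SE is the size of the log2 fold change over the square root of F, and intervals are at 95%. The steps were run on simulated counts with known changes in far fewer genes than were called here. That run served as a check of the code, and its outcome is not used for any result. Depth limits precision most for ALDH1L2 and MTHFD2L, and intervals cover only the spread between these libraries.

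The members and lists were chosen with earlier results of these data known. Named besides the members are, from each list, up to 3 called genes per direction by size of change and the 2 highest by mean CPM. Some others are named as low in counts or as the rest of a short list. Some genes that this rule would name are not reported here. Exon overlaps come from GENCODE release 29 on the same build, promoter windows from RefSeq. Same-numbered libraries of the groups correlated at 0.207, -0.091 and 0.12 in their deviations from the group means, so the numbers were not taken as pairs. Alternatives were other scaling factors, count filters, DESeq2 1.42.0, limma 3.58.1 (voom, and log2 of the score plus 1 or 0.1), a replicate block, a stricter threshold, a test against a fold of 1.2, and omission of each library.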

Additional observations from a re-analysis of the deposited data

How the results depend on the processing

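The 7 calls among the enzymes became 6 or 7 when 1 library was left out, and 0 were called lower under any of the 18 alternatives. Against a fold of 1.2, 3 members were called (PHGDH, PSAT1 and MTHFD1L), with 747 genes called higher and 688 lower over all tested genes and, of the further pathway genes, 11 higher and 4 lower. PHGDH, PSAT1, PSPH, MTHFD1, MTHFD2 and MTHFD1L were called higher under all 16 alternatives run on single genes, with log2 fold changes of 0.54 to 0.60, 0.53 to 0.60, 0.35 to 0.44, 0.16 to 0.25, 0.31 to 0.40 and 0.36 to 0.42. ALDH1L2 lost its call on log2 of the score plus 1 (log2 fold change 0.36, adjusted p = 0.107) or plus 0.1 (0.52, adjusted p = 0.123), and ran from 0.41 to 0.71 with 1 library left out. Without a call, SHMT2 ran from -0.065 to 0.042 in the same way and took the opposite sign without siCCNL2 replicate 1 (0.033), siNC replicate 2 (0.0052) or siNC replicate 3. MTHFD2L ran from -0.035 (without siCCNL2 replicate 2) to 0.24. The cause was not tested. With the replicate number as a block, 7 members were called higher and 0 lower, and PHGDH had a log2 fold change of 0.57, so no call among the members changed. Upper-quartile factors moved the median of all genes by -0.02 on the log2 scale and changed no call among the members. The ratio of ALDH1L2 to ALDH1L1 was not computed because of the low ALDH1L1 counts.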
